A study of Mus musculus with 66 samples.

Results

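The comparison described here asks whether formalin fixation moved the same RNAs in a cultured cell line and in a tissue. It rests on 12 of the 66 libraries of the series, all made with the Ovation SoLo kit from 2 ng of total RNA. They fall into 4 groups of 3: BC57 fresh frozen (FF), BC57 formalin-fixed and paraffin-embedded (FFPE), urothelium FF and urothelium FFPE. BC57 is a mouse bladder cancer cell line that was grown in serum-containing medium, and its single harvested pellet was split between freezing and fixation. The urothelium is the epithelial lining of the bladder, here the normal tissue of 9 mice, split in the same way, with 24 hours in buffered formalin for the fixed part. The sources used here do not say how the 9 mice were combined, nor their strain and age. The 3 libraries of a group are repeats that no label ties to separate animals or cultures, so p-values measure the spread between libraries, which may be technical. FFPE RNA came from 10 slices of 5 µm with an RNeasy FFPE kit and FF RNA from an RNeasy mini kit, so that fixation and extraction cannot be told apart.

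For each gene the quantity of interest is a difference of differences, called the interaction below. It is the log2 change from FF to FFPE in BC57 minus the same change in urothelium, so a positive value means that the FFPE to FF ratio was higher in BC57. All genes of the count table were eligible, and 14527 of 39179 passed the filter on low counts. Of these, 10531 were measured in both samples, meaning a mean of at least 5 CPM (each count relative to the scaled library total) in 1 group of each. Total counts ran from 1843795 to 4072971 per library.

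Formalin links RNA to protein and adds groups to its bases, and RNA recovered from FFPE blocks is usually broken into short pieces. Libraries primed with random oligomers on total RNA record molecules without a poly(A) tail as well as mRNA: small nuclear RNAs (snRNAs) of the spliceosome, small nucleolar RNAs (snoRNAs), which guide the modification of ribosomal RNA, Cajal body RNAs (scaRNAs), which guide that of snRNAs, and histone mRNAs. Mitochondria transcribe their own compact genome from both strands as long precursors, which are cut at the tRNAs into mRNAs, rRNAs and tRNAs.

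Some short structured RNAs are printed here because several mitochondrial tRNAs and snRNAs lay at opposite ends of the comparison. The sequences are the annotated transcripts (GENCODE M21, mm10), written 5′ to 3′ as DNA. In the 4 mitochondrial tRNAs, which had a higher FFPE to FF ratio in BC57, capitals mark the anticodon. mt-Ta (alanine) lies at chrM:5018-5086, mt-Tn (asparagine) at chrM:5089-5159, mt-Tc (cysteine) at chrM:5192-5257 and mt-Ts1 (serine) at chrM:6870-6938, all on the minus strand.
mt-Ta: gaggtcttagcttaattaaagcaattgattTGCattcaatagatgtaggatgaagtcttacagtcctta
mt-Tn: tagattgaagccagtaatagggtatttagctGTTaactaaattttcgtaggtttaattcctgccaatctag
mt-Tc: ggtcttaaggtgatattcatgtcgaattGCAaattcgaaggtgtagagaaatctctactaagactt
mt-Ts1: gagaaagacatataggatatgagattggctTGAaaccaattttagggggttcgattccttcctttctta

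The snRNA shown next had many counts in frozen BC57 and few in frozen urothelium. It rose in urothelium (log2 change 3.09) and did not rise in BC57 (-0.15). Gm26316 (chr11:101604850-101605040, plus strand) is a copy of U2 snRNA. Capitals mark the motif of the Sm site, on which the ring of Sm proteins assembles, searched on the transcript strand as an A, a run of 4 to 6 T and a G.
Gm26316: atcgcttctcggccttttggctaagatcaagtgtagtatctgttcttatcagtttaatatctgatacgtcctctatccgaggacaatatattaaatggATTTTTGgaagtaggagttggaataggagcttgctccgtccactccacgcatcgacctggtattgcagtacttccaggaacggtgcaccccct
The motif occurs in 124 of 1383 annotated snRNAs (9.0%), in 26 of the 40 tested (65.0%) and in the 11 that were called lower below. Those 11 are all copies of U2 or U5, so the motif comes with the family and they are not separate observations. A link between the motif and the direction of the interaction was not tested.

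RNA classes differed in direction. Most RNAs of the mitochondrial genome, Neat1, Malat1 and the scaRNAs had a higher FFPE to FF ratio in BC57, while most snRNAs had a higher one in urothelium. Among mRNAs, many histone and epithelial genes fell further in urothelium than in BC57. The edgeR quasi-likelihood test with Benjamini-Hochberg adjustment called 857 of 14527 genes (5.90%) at an adjusted p under 0.05, 619 of them higher in BC57 (4.26%) and 238 lower (1.64%). At least a 2-fold difference was found for 326 of them (2.24%). With all 36 Ovation libraries in one fit, which adds the lower inputs to the estimate of the spread, 45 were called, 38 higher and 7 lower. Among the genes measured in both samples, 797 were called (7.57%), 569 of them higher (5.40%) and 228 lower (2.17%), and these shares are the background for the counts below. The split depends on the scaling: 428 were higher and 396 lower with total counts only, 481 and 336 with only the genes measured in both samples in the fit, and 993 and 136 with limma on the deposited log2 values. Between these scalings the median interaction of all genes measured in both samples ran from -0.04 to 0.20, against 0.06, so that single interactions near 0 have no stable sign.

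Fixation changed 4009 genes in BC57 (27.6%) and 4957 in urothelium (34.1%) by the same edgeR fit, by at least 2-fold for 1107 (7.62%) and 1390 (9.57%). Of the 797 genes above, 300 changed in the same direction in each, by different amounts, and 49 changed in opposite directions. A further 288 passed the test for fixation in urothelium alone, 153 in BC57 alone, and 7 in neither.

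**Figure D1:**
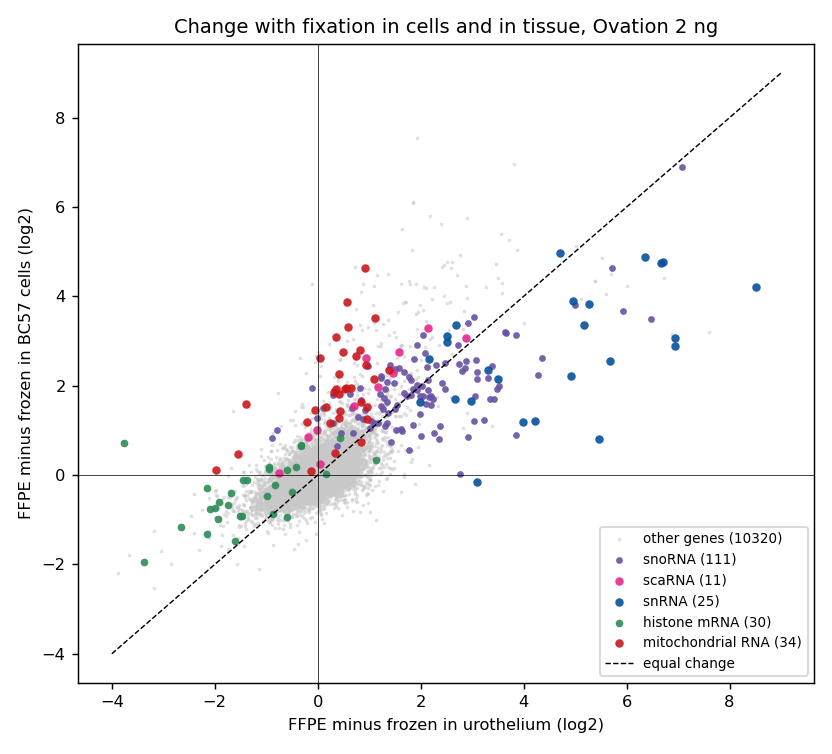
Change from FF to FFPE in urothelium (x axis, log2) against that in BC57 (y axis, log2) for the 10531 genes measured in both samples, with RNA classes coloured. Most of the 34 mitochondrial RNAs lie above the dashed line of equal change, and 20 of the 25 snRNAs lie below it.

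The mitochondrial transcriptome rose more in BC57 than in urothelium. All 37 mitochondrial RNAs together took 4.34, 4.399 and 4.29% of the 3 BC57 FF libraries and 12.6, 13.1 and 12.1% of the BC57 FFPE libraries. In urothelium they took 8.48, 8.77 and 8.45% of the FF and 10.5, 10.7 and 10.6% of the FFPE libraries. Frozen BC57 was thus the lowest group and fixed BC57 the highest, with no overlap between groups. Both mitochondrial rRNAs were called higher, at a log2 interaction of 1.40 ± 0.07 (SE; adjusted p = 1.128e-24, edgeR) for mt-Rnr2, the large rRNA, and 1.29 ± 0.08 for mt-Rnr1, the small one. mt-Rnr2 stood at 9558, 9822 and 9969 CPM in BC57 FF, 37880, 37600 and 37100 in BC57 FFPE, 19190, 20270 and 20620 in urothelium FF, and 29800, 29110 and 28680 in urothelium FFPE. Its level thus rose in each sample, and more in BC57.

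Of the 13 mitochondrial mRNAs, which encode subunits of the respiratory chain and of ATP synthase, 9 were called higher and 0 lower by edgeR, against a background of 5.40% higher. At an unadjusted p under 0.05, 12 were higher and 0 lower, and DESeq2 called 9 and 0. Their median log2 change was 1.52 in BC57 and 0.42 in urothelium. The largest interaction was that of mt-Nd6, a complex I subunit and the only one of these mRNAs read from the minus strand, at 1.84 ± 0.08 (adjusted p = 4.573e-26, edgeR). mt-Nd6 rose from 778, 781 and 727 CPM to 3527, 3739 and 3643 in BC57, and from 2852, 2797 and 2637 to 3470, 3588 and 4002 in urothelium. mt-Co1, the catalytic subunit of cytochrome oxidase, rose in BC57 (mean 5992 to 16520 CPM), and its change in urothelium was -0.05 (19010 to 18350 CPM, adjusted p = 0.468, edgeR). The 4 mRNAs without a call were mt-Atp8, mt-Atp6 and mt-Co3, which lie next to each other, and mt-Nd3, at 0.56, 0.30, -0.11 and 0.22. mt-Atp8, mt-Atp6 and mt-Co3 had means of at most 243.2 CPM in any group, as did the called mt-Co2 and mt-Nd4l. Means were at least 1365 CPM for mt-Nd1, mt-Nd2, mt-Co1, mt-Nd4, mt-Nd5 and mt-Cytb. The cause of the low levels was not tested, and the handling of reads that map to several genes is not stated. mt-Nd4l, with 1.52 ± 0.32, overlaps mt-Nd4, and reads of that overlap cannot be assigned to 1 of them.

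Mitochondrial tRNAs, which bring amino acids to the mitochondrial ribosome, had larger interactions than the mRNAs. Of 22 listed, 21 were tested and 19 measured in both samples, of which 17 were called higher and 0 lower. An unadjusted p under 0.05 was reached by 18 higher and 0 lower, and DESeq2 called 15 and 0. Their median interaction was 2.01 on the log2 scale, between 1.92 and 2.15 over 24 alternative settings. mt-Ta, printed above, stood at 10.1, 13.4 and 9.94 CPM in BC57 FF and at 309.5, 264 and 254 in BC57 FFPE. In urothelium it stood at 38.6, 36.1 and 38.5 CPM in FF and at 73, 79.1 and 62.7 in FFPE. The FFPE libraries were above the FF libraries in each sample, and the interaction was 3.71 ± 0.21 (adjusted p = 1.07e-21, edgeR). mt-Tn and mt-Tc, its neighbours on the same strand, had interactions of 3.31 ± 0.15 and 2.72 ± 0.15.

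A few mitochondrial tRNAs fell in urothelium and did not fall in BC57. mt-Ty, the tyrosine tRNA, was the most abundant, at 2704, 2796 and 2712 CPM in urothelium FF and 920, 980 and 906 in urothelium FFPE. In BC57 it stood at 1048, 1049 and 1090 CPM in FF and 1422, 1598 and 1378 in FFPE. The order of the samples thus turned over with fixation, and the interaction was 2.01 ± 0.08 (adjusted p = 3.093e-27, edgeR). The summed share of the tRNAs in urothelium fell with it, from a mean of 0.396% of counts to 0.245%, although 11 of the 19 rose there and 3 fell. The other 2 that fell were mt-Tf, next to the start of the rRNAs, at a change of -1.97 in urothelium, and mt-Ts1, at -1.40, both with means of at most 34.97 CPM.

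Both strands of the mitochondrial genome showed the difference. The 8 tRNAs on the minus strand were all called, with a median interaction of 2.49 (1.41 to 3.71). On the plus strand 9 of 11 were called, with a median of 1.38 (0.17 to 2.73). The library kit keeps the strand, but the strand setting of the counting is not given in the sources used here. Reads of tRNAs that lie opposite another RNA, such as mt-Ts1 opposite mt-Co1, can therefore not be assigned with certainty.

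**Figure D2:**
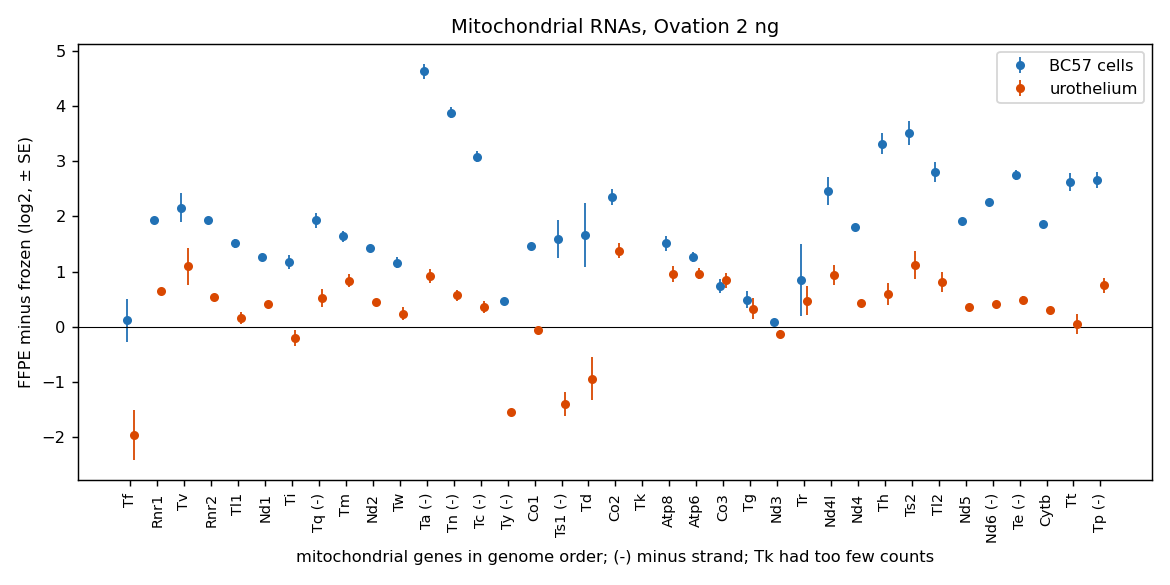
Log2 change from FF to FFPE (y axis, fitted value ± SE from 3 libraries a group) of each mitochondrial gene in genome order (x axis) for BC57 and urothelium. BC57 points lie above urothelium points for nearly all genes, with mt-Ta at 4.63 against 0.92, and mt-Ty, mt-Tf and mt-Ts1 below 0 in urothelium.

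Genes annotated as snRNAs more often had the higher FFPE to FF ratio in urothelium. Of 40 tested, 25 were measured in both samples, of which 11 were called lower in BC57 and 2 higher (background 2.17% lower and 5.40% higher). With DESeq2 the counts were 7 and 0. A level in FFPE alone was enough to be measured, and most of the 11 were under 5 CPM in frozen urothelium. Being measured thus favours a rise in urothelium. Of all 40 tested, edgeR called 11 lower (27.5%) and 2 higher (5.0%), against 1.64% and 4.26% of all genes tested. Of the 25 measured in both, 23 rose in BC57 and 25 in urothelium by edgeR. The median log2 change was 2.90 in BC57 and 4.71 in urothelium, and the median interaction was -1.48. Of these 25 genes, 8 had only 1 to 3 counts in a group, and 1 had none. With the latter set to a floor of 3 counts per group, the median was -1.44. All snRNAs together took 0.110, 0.106 and 0.107% of BC57 FF, 0.584, 0.587 and 0.601% of BC57 FFPE, 0.135, 0.149 and 0.190% of urothelium FF and 1.20, 1.08 and 1.00% of urothelium FFPE libraries.

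The difference was uneven between snRNA families. Each tested snRNA was assigned to the named snRNA it matched at 80% or more of positions, and CPM were summed within a family, since reads of near-identical copies can be split between genes. U5 snRNA, which holds the exons during splicing, rose 14.2-fold in BC57 (34.1 ± 4.3 to 483.7 ± 19.9 CPM, mean ± SD, n = 3) and 68.4-fold in urothelium (12.4 ± 4.7 to 845.4 ± 91.2). U2 snRNA, which pairs with the branch site, rose 2.83-fold in BC57 (512.5 ± 45.6 to 1452 ± 99.9) and 9.42-fold in urothelium (74.3 ± 14.5 to 699.3 ± 74.7). U12, its counterpart in the minor spliceosome, rose 31.8-fold and 88.3-fold from 9 and 7 counts in the FF groups. U1 snRNA, which recognises the 5′ splice site, rose 27.8-fold and 26.4-fold, nearly all of it from 1 gene, Gm22513 (interaction 0.26, adjusted p = 0.544, edgeR). These family sums were not tested. The FF and FFPE libraries of a sample do not overlap in any of the 6 families.

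By gene, the U2 family had 7 of 11 tested members called lower and the U5 family 4 of 7. Neither family had a member called higher, nor was any U1, U6, U11 or U12 gene called in either direction by edgeR. Gm26316, printed above, had the most counts in frozen BC57 among the U2 copies with a call. It had 1254 counts over the 3 BC57 FF libraries but 9 over the urothelium FF libraries (interaction -3.24, adjusted p = 3.586e-06, edgeR). Gm25939, a called U2 copy with 721 counts in BC57 FF and 315 in urothelium FF, had a smaller interaction of -0.95 (adjusted p = 1.284e-06, edgeR). Rnu5g had 10, 8 and 5 counts in BC57 FF and 101, 74 and 128 in BC57 FFPE. In urothelium it had 0, 1 and 2 counts in FF and 219, 184 and 164 in FFPE. The urothelium ratio, scaled for library size, was 134.3 (exact 95% counting interval 45.7 to 653.1), while in BC57 the mean rose from 3.31 to 27.95 CPM. The 9 snRNA genes that matched none of the named snRNAs had the largest sum, rising 8.38-fold in BC57 (433.2 to 3631 CPM) and 6.06-fold in urothelium (1311 to 7940). They held the 2 called higher, Gm24265 and Gm24407, a neighbouring pair of equal length on chromosome 5, at 0.46 and 0.68. This pair made up most of the sum, with means of 2599 and 988.6 CPM in BC57 FFPE. The named snRNAs did not include U4, so a copy of U4 could not be matched, and the family of the pair was not tested. The copies named in this paragraph and the one before were chosen after their values were seen.

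**Figure D3:**
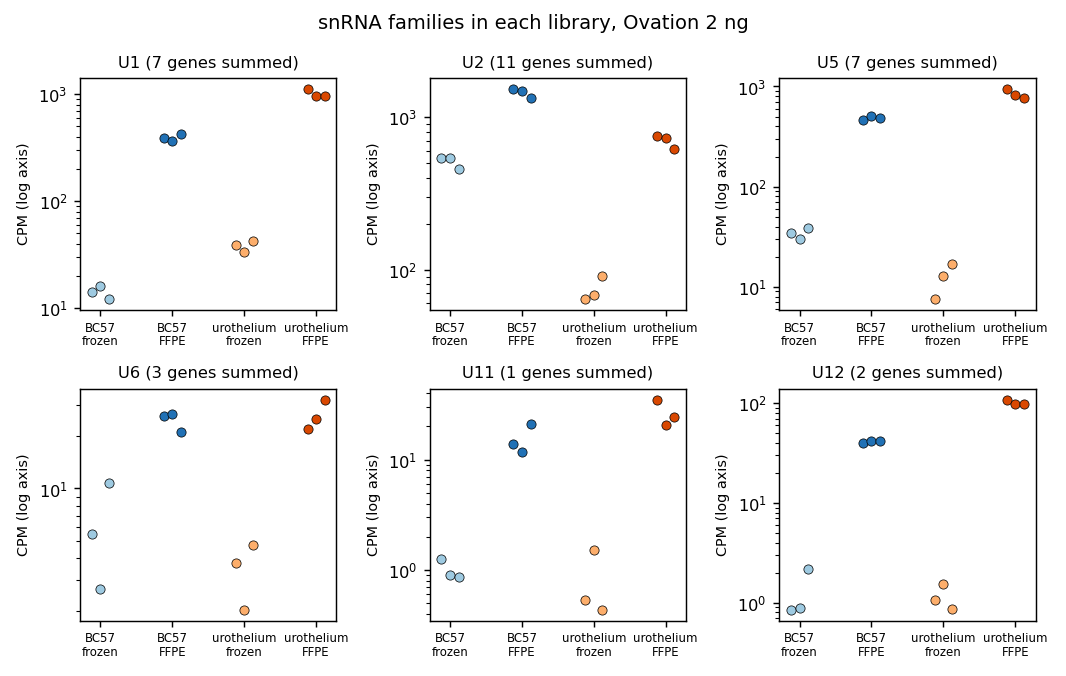
Summed CPM (y axis, log scale) of 6 snRNA families in each library (points) of the 4 groups (x axis). U5 and U2 start lower in frozen urothelium than in frozen BC57, and of these U5 ends above BC57 after fixation.

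snoRNAs rose in both samples, with single members leaning either way. Of 111 measured in both, 106 rose in BC57 and 101 in urothelium, and none fell in either. The median log2 change was 1.81 in BC57 and 1.92 in urothelium. For the interaction 17 were called higher and 11 lower, with a median of -0.02 that ran from -0.39 to 0.09 over the alternatives. Members were sorted by sequence into box C/D snoRNAs (TGATGA within the first 20 bases and CTGA within the last 20), which guide 2′-O-methylation, and box H/ACA snoRNAs (ACA at most 4 bases from the 3′ end), which guide pseudouridylation. These motifs alone define 302 and 648 of 1507 annotated snoRNAs. The 27 box C/D members measured in both had a median interaction of 0.03, and the 58 box H/ACA members one of -0.25. A test of that difference was not made.

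Snord33, from an intron of Rpl13a (chr7:45126864-45126947, minus strand), is shown with its boxes C and D in capitals because it was called lower.
Snord33: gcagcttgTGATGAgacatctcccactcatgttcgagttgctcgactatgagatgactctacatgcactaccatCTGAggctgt
It stood at 27.8, 25.8 and 35.01 CPM in BC57 FF and 61.1, 47.7 and 45.9 in BC57 FFPE, against 4.29, 5.09 and 12.1 in urothelium FF and 42.4, 36.4 and 36.5 in urothelium FFPE. The rise was larger in urothelium, with an interaction of -1.56 ± 0.31 (adjusted p = 3.298e-04, edgeR). Snora28 in Eif5 and Snora81 in Eif4a2 had interactions of -1.63 ± 0.43 and -1.54 ± 0.35. Snord118, the U8 RNA needed for 28S rRNA processing, had 1, 1 and 0 counts in urothelium FF and 116, 97 and 72 in FFPE, a ratio of 101.2 (27.8 to 840.0). In BC57 it rose from a mean of 5.33 to 60.3 CPM.

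Of 11 annotated scaRNAs measured in both samples, 9 rose in BC57, with none falling, and 7 rose and 1 fell in urothelium. For the interaction 6 were called higher and 0 lower (8 and 0 at an unadjusted p under 0.05, 6 and 0 with DESeq2), with a median of 0.84. Scarna13 rose in BC57 from a mean of 145.6 to 292.0 CPM and stood at 126.2 and 125.8 in urothelium, with an interaction of 1.01 ± 0.13. Scarna10, which the annotation lists as a snoRNA and which is counted there, stood at 97.4, 86.0 and 92.0 CPM in BC57 FF and 224, 241 and 202 in BC57 FFPE. In urothelium its FF libraries (219, 263 and 228) overlapped its FFPE libraries (262, 231 and 206). The interaction of Scarna10 was 1.30 ± 0.13 (adjusted p = 1.168e-11, edgeR). The vault RNA Vaultrc5 rose in both, from a mean of 3.03 to 129.8 CPM in BC57 and from 22.1 to 263.5 in urothelium, with an interaction of 1.84 ± 0.33.

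Of 9 nuclear long noncoding RNAs measured in both samples, 9 rose in BC57 and 6 in urothelium. For the interaction 4 were called higher (Neat1, Malat1, Airn and Firre) and 1 lower (Gm26917), while Xist, Tug1, Pvt1 and Mir17hg had no call. Neat1, the scaffold of paraspeckles, stood at 185, 186 and 206 CPM in BC57 FF and 2758, 2788 and 2983 in BC57 FFPE. In urothelium Neat1 stood at 517, 527 and 521 CPM in FF and 1725, 1689 and 1742 in FFPE. Frozen BC57 was below frozen urothelium and fixed BC57 above fixed urothelium, and the interaction of 2.16 ± 0.09 (adjusted p = 1.796e-27, edgeR) was among the best resolved. Malat1, a nuclear speckle RNA, kept its order, with means of 1291 and 4677 CPM in BC57 against 17300 and 21980 in urothelium, and an interaction of 1.51 ± 0.08. Gm26917, a ribosomal-repeat-like noncoding gene, had an interaction of -1.47 ± 0.08. It rose from 1792, 2149 and 1920 to 7292, 7045 and 6615 CPM in urothelium and from a mean of 12770 to 16420 in BC57. The 5 genes annotated as rRNA and measured in both samples had a median interaction of -1.05. Of these, edgeR called 2 lower and 0 higher, DESeq2 called 0, and 2 had only 1 to 3 counts in a group.

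Airn, the long antisense transcript of the imprinted Igf2r locus, had 1 count in each BC57 FF library and 41, 31 and 44 in the FFPE libraries, a scaled ratio of 24.97 (exact 95% counting interval 8.34 to 122.9). Its mean in urothelium rose from 19.2 to 49.6 CPM. Airn overlaps Igf2r on the other strand. Several protein-coding genes shared this pattern of nearly no counts in frozen BC57, among the 12 highest interactions: Evi2b and its read-through neighbour Evi2, inside an Nf1 intron, Angptl2, a secreted angiopoietin-like protein, and Megf11, an EGF-domain receptor. Over the 3 libraries they went from 1, 1, 2 and 2 counts in BC57 FF to 141, 140, 90 and 176 in BC57 FFPE. In the Ovation 250 pg libraries their interactions were 3.27, 3.21, 4.90 and 0.45 ± 1.23, and that of Airn was 0.10 ± 1.03. In SMARTer 2 ng libraries they were 4.46, 4.46, 2.33 and 1.11, with 1.22 for Airn. None of these was called by edgeR. Evi2b and Evi2 share most of their reads and count as 1 observation. Paqr5, a membrane progesterone receptor, rose in BC57 (2.17 ± 0.91 to 14.7 ± 2.1 CPM) and had no call in urothelium (319.9 against 322.0), with an interaction of 2.74 ± 0.31.

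**Figure D4:**
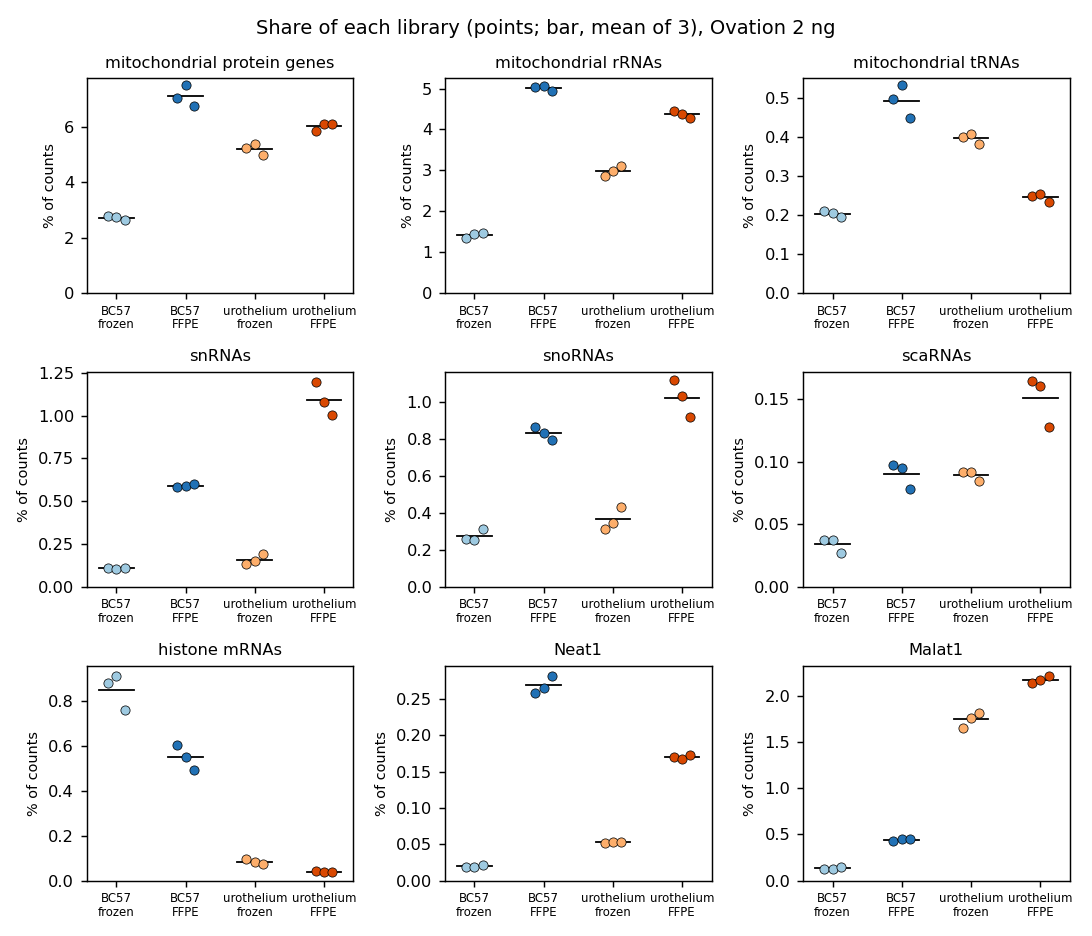
Percent of each library's counts (y axis) taken by 9 RNA classes or genes in the 4 groups (x axis), with points for libraries and bars for means of 3. Mitochondrial tRNAs rise in BC57 and fall in urothelium, Neat1 turns over, and snRNAs rise most in urothelium.

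Replication-dependent histone mRNAs, which end in a stem-loop in place of a poly(A) tail and are made in S phase, fell further in urothelium. Of 62 in the table, 58 were tested and 30 measured in both samples. For the interaction 16 of these 30 were called higher and 0 lower, with a median of 0.96. At an unadjusted p under 0.05 the counts were 19 and 0, and with DESeq2 12 and 0. A level in FF alone was enough to be measured. Several called genes were measured in urothelium through FF only, such as Hist1h4b (mean 14.4 CPM in FF, 2.27 in FFPE). Being measured thus favours a fall in urothelium. Of all 58 tested, edgeR called 16 higher (27.6%) and 0 lower, against 4.26% and 1.64% of all genes tested. In urothelium 24 of the 30 fell and 1 rose, with a median change of -1.41. In BC57 17 fell and 4 rose, with a median of -0.39. Their summed level was about 10 times lower in frozen urothelium, 840.4 ± 119.5 against 8264 ± 717 CPM in frozen BC57 (mean ± SD, n = 3).

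Histone H4 genes led the list, with 9 of 11 called and a median interaction of 1.29. Hist1h4m stood at 5.06, 8.46 and 7.78 CPM in BC57 FF, 11.7, 10.6 and 12.7 in BC57 FFPE, 35.4, 30.5 and 30.3 in urothelium FF and 3.03, 1.16 and 2.58 in urothelium FFPE. It rose in BC57 and fell in urothelium, and its interaction of 4.49 ± 0.43 (adjusted p = 3.921e-12, edgeR) was the highest of the named genes. Hist1h4n fell in both, from a mean of 463.8 to 120.5 CPM in BC57 and from 24.6 to 2.29 in urothelium. H2A genes had 0 of 5 called by edgeR. Copies of one histone are near-identical, and their reads may be split between genes. The consensus letters of the histone stem-loop were found in the annotated transcript of 14 of the 30 and in 0.00911% of other protein-coding genes. Those 14 had a median interaction of 0.60 and the other 16 one of 1.19.

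Epithelial genes also kept a higher FFPE to FF ratio in BC57. Of 13 urothelial differentiation genes measured in both samples, 8 were called higher and 0 lower, of 15 epithelial junction genes 7 and 0, and of 7 basal genes 3 and 0. At an unadjusted p under 0.05 the counts were 11, 9 and 5 higher and 0 lower in each list, and DESeq2 called 7, 4 and 3 higher and 0 lower. Medians were 0.69, 0.35 and 0.36. Krt18, a simple keratin of the intermediate filaments, stood at 1682, 1708 and 1528 CPM in BC57 FF and 918, 821 and 819 in BC57 FFPE. In urothelium Krt18 stood at 1063, 927 and 955 CPM in FF and 301, 246 and 245 in FFPE. It fell in both, by 0.94 on the log2 scale in BC57 and by 1.89 in urothelium, with an interaction of 0.95 ± 0.10 (adjusted p = 6.185e-11, edgeR).

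Krt8, the partner of Krt18, and Krt19 had interactions of 0.95 ± 0.10 and 0.92 ± 0.10. Klf5, a transcription factor of bladder epithelium, had no call for fixation in BC57 (88.5 to 91.0 CPM) and fell in urothelium (247.7 to 135.7), at 0.91 ± 0.13. The adhesion protein Epcam (0.71 ± 0.13), the desmosomal Dsp (0.65 ± 0.11) and Lamb3 of the basement membrane (0.95 ± 0.17) moved likewise. Upk2, a uroplakin of the umbrella cells, was near the floor in BC57 (1.30 CPM in FF) and without a call (0.73 ± 0.54, adjusted p = 0.513, edgeR).

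The urothelium also held markers of other cell types, whose summed levels differed between FF and FFPE. In bulk RNA, fewer cells of a type and less RNA per cell cannot be told apart. The 9 urothelial markers summed to 6095 to 6507 CPM in urothelium FF and 5063 to 5224 in FFPE, and the 4 basal markers to 1806 to 1910 and 1017 to 1049. The 6 fibroblast markers rose from 9319 to 9889 up to 13000 to 13390 CPM, with none at 0. Means of the endothelial (219.9 to 192.4), immune (227.9 to 195.8) and adipocyte markers (379.9 to 116.3) were lower in FFPE. Adipoq, Cfd and Plin1 were at 0, so the adipocyte sum is Fabp4 alone and does not by itself show adipocytes. Means of the smooth muscle (192.3 to 226.5), Schwann (7.96 to 9.60) and erythroid markers (5.255 to 12.16) were higher in FFPE, and skeletal muscle markers were near 0 (0.88 to 0.70). In BC57 the fibroblast markers summed to at most 17.9 CPM in any library, with Lum at 0, and the 5 endothelial ones to at most 1.67, with Tek at 0. BC57 expressed urothelial markers at 262 to 342 CPM. Of 14 tested fibroblast genes 10 rose and 2 fell in urothelium, and only 4 were measured in both samples. Fn1, fibronectin, was the 1 called, at -0.62 ± 0.10: it stood at 300.5, 314 and 309 CPM in BC57 FF, 276, 275 and 312 in BC57 FFPE, 469.7, 423 and 401 in urothelium FF and 632, 638 and 589 in urothelium FFPE. The part of the tissue's cell mixture in the epithelial result was not tested.

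Metabolic programmes shifted in the same direction as the epithelial genes. Of 75 nuclear genes of oxidative phosphorylation 10 were called higher and 0 lower, of 14 glycolysis genes 5 and 0, and of 19 cholesterol synthesis genes 4 and 0. An unadjusted p under 0.05 was reached by 30, 7 and 8 higher and 0 lower in each, and DESeq2 called 7, 4 and 3 higher and 0 lower. Their medians were 0.32, 0.40 and 0.36, positive under every alternative scaling tried. In the Ovation 250 pg libraries they were 0.07, 0.21 and 0.225, and in SMARTer 2 ng libraries 0.48, 0.60 and 0.45. At 250 pg 46 of the 75 oxidative phosphorylation genes were positive and 0 were called. The 13.3% of them called higher at 2 ng is near the 12.2% in the most abundant quintile of other nuclear protein-coding genes. In urothelium 34, 11 and 13 genes of the 3 lists fell, and in BC57 19, 10 and 5. Cox6b1, a subunit of cytochrome oxidase, was one of the genes with opposite changes: it rose in BC57 (60.3 to 81.1 CPM) and fell in urothelium (47.8 to 34.9), at 0.87 ± 0.20.

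Gapdh, a glycolytic enzyme often used as a reference, stood at 1886, 1929 and 1690 CPM in BC57 FF and 1287, 1223 and 1210 in BC57 FFPE. In urothelium Gapdh stood at 268, 256 and 264 CPM in FF and 106, 102 and 115 in FFPE. It fell in both samples and further in urothelium, with an interaction of 0.72 ± 0.10 (adjusted p = 2.915e-07, edgeR). Actb, cytoplasmic actin, behaved likewise at 0.33 ± 0.07, and Ppia, a prolyl isomerase, at 0.66 ± 0.10. Of 14 housekeeping genes, 4 were called higher and 0 lower (6 and 0 at an unadjusted p under 0.05, 3 and 0 with DESeq2).

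Of 14 heat shock chaperone genes measured in both samples, 9 fell in BC57 and 11 in urothelium. For the interaction 5 were called higher and 0 lower (6 and 0 unadjusted, 4 and 0 with DESeq2). Hsp90aa1, an inducible cytosolic chaperone, fell from a mean of 2448 to 1179 CPM in BC57 and from 308.0 to 91.3 in urothelium, at 0.70 ± 0.11. Hspa5, the chaperone of the endoplasmic reticulum, had 0.41 ± 0.10. No gene was called for the interaction among 13 hypoxia, 10 p53 target, 12 interferon and 8 NF-kappaB genes by edgeR. At an unadjusted p under 0.05 these lists had 3, 3, 0 and 0 higher and 0, 1, 1 and 0 lower, DESeq2 called 0 in each, and limma called 1 hypoxia and 2 p53 genes higher.

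Translation factors split, with 8 of 26 called higher (30.8%) and 2 lower (7.7%). Of 78 ribosomal protein genes 2 were called higher (2.6%) and 1 lower (1.3%), below the background of 5.40% and 2.17%. Both lower factors, Eif4a1 (-0.84 ± 0.09) and Eif4g2 (-0.82 ± 0.08), and the lower ribosomal gene Rps3 (-0.68 ± 0.10) hold annotated small RNAs within their span: Snord15a and Snord15b in Rps3, Gm23262 in Eif4g2 and Gm24029, Gm22988 and Gm25835 in Eif4a1. Rps3 stood at 600.1, 627 and 594 CPM in BC57 FF, 796, 671 and 698 in BC57 FFPE, 805, 760.1 and 888 in urothelium FF and 1729, 1533 and 1423 in urothelium FFPE. Of these small RNAs, Snord15b was called lower (-0.52), while Snord15a (0.88), Gm23262 (1.00) and Gm25835 (0.73) were called higher and Gm24029 (0.53) and Gm22988 (0.41) had no call. Reads of a gene and of the small RNA inside it may not be separable. Eif4a2 was called higher at 0.72 ± 0.11. Among the small RNAs in its span, Gm26447 (0.60) and Gm24201 (1.45) were called higher, Snora81 (-1.54) lower, and Gm24616 (-0.72) had no call. The ribosomal protein genes as a list had a median of 0.07, which turned to -0.03 with another scaling.

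**Figure D5:**
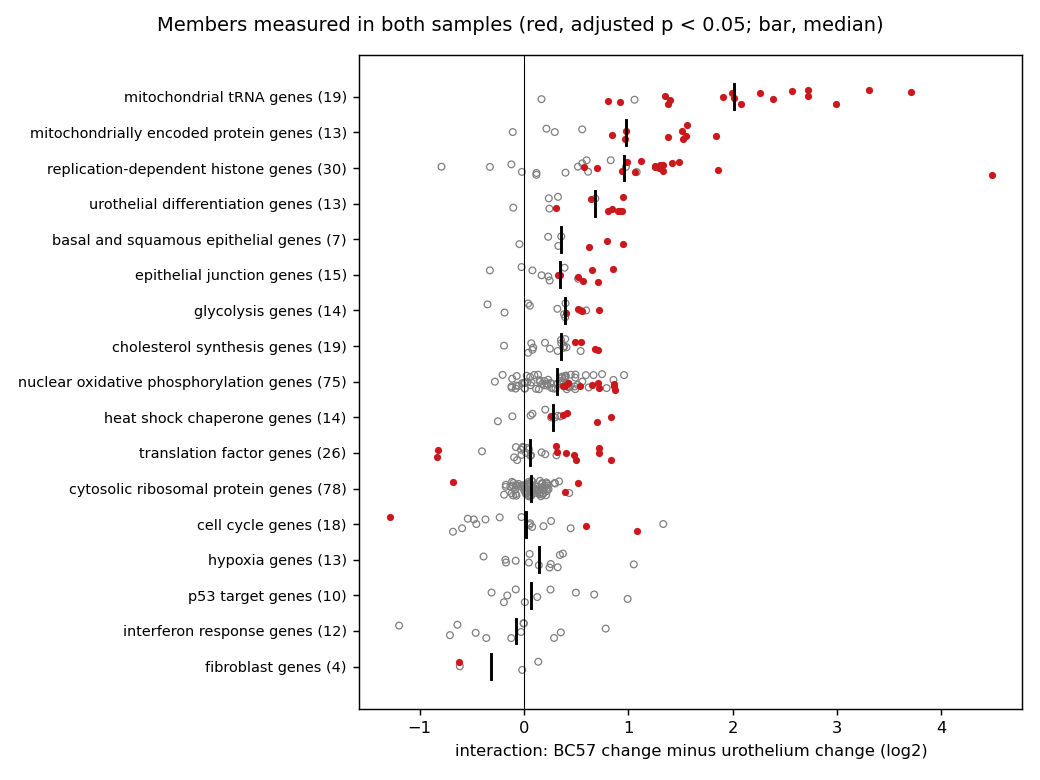
Interaction (x axis, log2) of each member measured in both samples for 17 gene lists, with called members in red and the list median as a bar. Medians run from 2.01 for mitochondrial tRNAs to -0.32 for the 4 fibroblast genes, and the hypoxia, p53 and interferon lists hold no red point.

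Cell cycle genes gave 2 higher and 1 lower call among 18 measured in both. Mki67, a marker of proliferating cells, stood at 631, 619 and 631 CPM in BC57 FF and 721, 708 and 727 in BC57 FFPE, against 40.8, 30.5 and 25.5 in urothelium FF and 19.5, 16.3 and 15.8 in FFPE. It rose in BC57 and fell in urothelium, at 1.08 ± 0.17 (adjusted p = 7.864e-06, edgeR). Kif20a, a mitotic kinesin, did the opposite: 254, 259 and 253 CPM fell to 162, 148 and 154 in BC57, and a mean of 15.5 rose to 23.2 in urothelium, at -1.29 ± 0.21. The 2 proliferation genes thus did not move together.

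Among the 12 lowest interactions, the mRNAs rose in urothelium and fell or had no call in BC57. Nexn, an actin-binding protein of muscle and stroma, stood at 12.3, 12.2 and 13.4 CPM in urothelium FF and 33.6, 42.6 and 40.7 in FFPE, against 30.3, 33.9 and 34.1 and then 23.4, 33.1 and 19.7 in BC57. Its interaction was -1.99 ± 0.27 (adjusted p = 3.082e-07, edgeR). Hhip, a Hedgehog-binding membrane protein, rose in urothelium from 87.4, 92.1 and 105.1 to 258.7, 236.8 and 230.1 CPM and had no call in BC57 (6.09 and 5.87), at -1.41 ± 0.32. Dse, a dermatan sulfate epimerase (-1.33 ± 0.28), and Slc16a3, a lactate exporter (-1.39 ± 0.33), fell in BC57 and rose in urothelium. Gatm, of creatine synthesis (-1.39 ± 0.38), Lrrc8b, of volume-regulated anion channels (-1.34 ± 0.39), and Pagr1a (-1.60 ± 0.35), of a histone methylation complex, rose in urothelium without a call in BC57. Pagr1a overlaps Pagr1b on the same strand, so its reads may be split.

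Gene length and abundance went with the share of calls among the 9534 other nuclear protein-coding genes measured in both samples. By quintile, genes with the shortest exon length (median 2011 bases) had a median interaction of 0.13, with 6.08% called higher and 0.682% lower. The longest quintile (median 10440 bases) had 0.03, with 6.08% and 2.94%. By gene span, calls for lower were 0.891% in the shortest quintile and 3.41% in the longest. Median interaction went from 0.00 in the quintile lowest in GC to 0.11 in the highest. The share called follows abundance, with 12.2% higher in the most abundant quintile against 1.78% in the least abundant.

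The same interaction was fitted in other libraries of the same BC57 cells and urothelium. No label ties them to new cultures or animals, so a shared sign speaks for the repeat of libraries only. At 250 pg with the Ovation kit, 54 of 15360 genes were called (0.352%), 37 of them higher (0.241%), and 125 without urothelium FF library 3, which detected fewer genes. Of the 797 genes called at 2 ng and measured in both samples, 705 had the same sign at 250 pg (88.5%), against 59.5% of the genes without a call. Genes without a call include those near 0, whose sign is not stable, so these shares do not compare like with like. In the SMARTer 2 ng libraries, made with another kit, edgeR called 0 of 16574 (0.00%; 1423 at an unadjusted p under 0.05). Without both FFPE libraries numbered 3, which stand apart in total count and genes detected, it called 524 of 16189, and 168 without the urothelium one alone. With all SMARTer 2 ng libraries 698 of 791 of the genes had the same sign as at 2 ng with the Ovation kit (88.2%), but only 17 of 23 of the genes named at the ends of the comparison. In the remaining libraries 741 of 792 of the genes had the same sign (93.6%), against 63.6% of the genes without a call.

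By class, the median interaction of the mitochondrial tRNAs was 2.32 at 250 pg and 0.34 in SMARTer libraries, or 1.21 without both libraries numbered 3. The mitochondrial mRNAs had 1.03, 0.68 and 1.13, histones 0.71, 0.56 and 0.51, and urothelial differentiation genes 0.63, 0.97 and 0.78. Of the 13 urothelial genes, all 13 were positive in each of the 3 fits. The snRNAs had -1.67 at 250 pg, with 0 of 25 positive and 5 called lower, but 0.38 over the 19 measured in SMARTer libraries, or -0.68 without both libraries numbered 3. Their sign therefore turned with those libraries.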

How the data were processed

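RNA was measured in 12 Ovation SoLo libraries (2 ng, 4 groups of 3), with the 250 pg and SMARTer 2 ng libraries for comparison. Read counts per gene were deposited by the authors; per the submitters' processing notes they used STAR, SAMtools, featureCounts and mm10, without versions. For the annotation, the strand setting and reads that map to several genes, nothing is stated there. The library kit is strand specific, with random priming, depletion of ribosomal sequences and paired reads of 100 nt, per the labels' protocols. The authors also deposited log2 values, which were recomputed from the counts to within 5.151e-14 and used as an alternative.

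Counts were filtered (filterByExpr over the 4 groups), scaled by TMM and fitted with edgeR 4.0.16 (quasi-likelihood, R 4.3.3). All contrasts came from that fit over the 12 libraries, with p-values adjusted (Benjamini-Hochberg) over all genes tested and calls at 0.05. The SE is the size of the log2 change over the square root of F. limma 3.58.1 and DESeq2 1.42.0 gave alternatives. Names, biotypes, coordinates and transcripts came from GENCODE M21, which matched 37693 of 39179 genes; unmatched genes took 0.739 to 1.209% of a library and stayed in the tests. Total counts per library ran from 1843795 to 4072971. Intervals and floors (3 counts) cover counting error only, since PCR reads are not independent molecules. Repeat libraries differed beyond sampling noise in every pair (chi-square per degree of freedom 1.498 to 2.925), so each counted once.

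Named were the 12 highest and 12 lowest interactions among called genes measured in both samples with at least 20 CPM in a group, a proper symbol and FFPE minus FF differences of log2(CPM + 0.5) that did not overlap between samples, up to 4 called members of each of 33 gene lists, and Gapdh, Actb, Neat1, Malat1 and Upk2. Mitochondrial and snRNA genes beyond these were named after their values were seen. The comparison, the members and the lists were chosen with earlier results of these data known.

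Alternatives were other scalings (RLE, upper quartile, total counts, TMM on nuclear protein-coding genes), filters, thinning to the smallest library, other fits, a replicate block and leaving out each library.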

Additional observations from a re-analysis of the deposited data

Results flagged for a closer look

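The change with fixation differed between BC57 and urothelium, by the edgeR interaction test, for 857 genes, and the 24 named at its ends are repeated here. On the BC57 side Hist1h4m had an interaction of 4.49 on the log2 scale, mt-Ta 3.71, mt-Tn 3.31, mt-Ts1 2.99, Paqr5 2.74, mt-Th 2.73 and mt-Tc 2.72. Genes with 1 to 3 counts in frozen BC57 have no stable fitted value. The adjusted p of their interaction (edgeR) was 3.922e-04 for Evi2b, 3.923e-04 for Evi2, 2.472e-05 for Angptl2, 0.004683 for Megf11 and 1.932e-04 for Airn. At 250 pg the interactions of Megf11 and Airn were near 0, at 0.45 ± 1.23 and 0.10 ± 1.03. On the urothelium side Nexn had -1.99, Snora28 -1.63, Pagr1a -1.60, Snord33 -1.56, Snora81 -1.54, Hhip -1.41, Gatm -1.39, Slc16a3 -1.39, Lrrc8b -1.34 and Dse -1.33. The adjusted p (edgeR) was 1.27e-04 for Rnu5g and 0.01392 for Snord118, which had 3 and 2 counts in frozen urothelium. Groups of 3 libraries are too small for a test of single outlying libraries.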

How the results depend on the processing

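The number of genes called for the interaction at 2 ng (857) stayed between 619 (DESeq2) and 1129 (limma on the deposited log2 values) under the other tools, scalings and filters. With all 36 Ovation libraries in one fit, which adds the groups at lower input to the estimate of the spread, it was 45, with 588 genes for fixation in BC57 and 760 in urothelium, and 70 of 91 named genes lost their call. The cause was not tested. Leaving out 1 library gave 672 to 823 for the interaction, 3309 to 4140 for BC57 and 4196 to 5192 for urothelium. It gave 37 to 125 at 250 pg (54 with all) and 0 to 168 for SMARTer 2 ng (0 with all), and leaving out both FFPE libraries numbered 3 gave 524 there. No named gene reversed in any refit that used the 2 ng libraries. In the fits of other libraries some did. Of the 24 genes named at the ends, 22 kept their sign at 250 pg and 2 did not. In SMARTer 2 ng libraries 17 of 23 kept it and 6 did not. Those with the opposite sign there included mt-Ta (-1.15 ± 1.68), mt-Tn (-1.26 ± 1.47) and mt-Tc (-0.84 ± 1.58), all without a call. The class median of antisense genes went from 0.039 to -0.056 with total counts, and that of all genes measured in both samples, which went from 0.06 to -0.04 with total counts and -0.002 with only those genes. Other list medians near 0, such as those of the translation factors, the spliceosome proteins and the cell cycle, also crossed 0 within the spread between libraries.

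The replicate block gave 1001 genes for the interaction at 2 ng, 4192 in BC57 and 5092 in urothelium, 49 at 250 pg and 1 in SMARTer 2 ng, and changed the call of none of the 91 named genes. At 2 ng any pairing by number was weak. Same-numbered libraries deviated together at a correlation of -0.014 to 0.161, over 0.1 in 1 of 18 pairs. Their median was 0.04, against -0.022 for libraries with different numbers. In SMARTer 2 ng libraries 17 of 18 pairs were over 0.1.

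Depth limits the genes with few counts in a frozen group, such as Rnu5g, Evi2b and most U2 and U5 copies, to a ratio with a wide interval. No label ties the repeat libraries to separate animals or cultures, and that spread was not tested.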
